A study of Mus musculus with 2 samples.

Results

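Antisense models are transcript models that long reads placed on the strand opposite to an annotated gene. They were taken here as every model that the authors' files class as Antisense in either library, which gave 10191 of 104489 models in replicate 1 and 18214 of 140263 in replicate 2, or 28405 of 244752 in all. A model present in both libraries is counted once in each. The samples were 2 long-read RNA-seq libraries made from total RNA of adrenal gland tissue of male B6CASTF1/J mice, first-generation hybrids of a C57BL/6 and a CAST/EiJ parent, aged 25 days. They form 1 group with no treatment, so the only comparison is between the libraries. The labels leave unclear whether the libraries came from separate animals, and the spread between them may be technical. Reads of mouse models numbered 782831 in replicate 1 and 1273035 in replicate 2.

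Antisense RNA is transcribed from the strand facing a gene, and it can arise from its own promoter, from transcription that runs on past a neighbouring gene, or from a divergent promoter. Some antisense RNAs are known to influence the gene they face. In long-read cDNA sequencing the strand of a read is inferred from the orientation of the cDNA, in which the poly(A) tail marks the 3′ end. Introns of mammalian genes nearly always begin with GT and end with AG on the transcribed strand, so the letters of an intron show the strand on which they read as a splice site.

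The sequences below are those that bear on the strand and on the ends of these models, read on mm10 from GENCODE M21 transcripts and RefSeq promoters (GRCm38.p6). The first set holds the 4 most-read introns of antisense models that coincide base for base with an annotated intron on the opposite strand, here called mirrored, among introns whose letters at both ends were known. Each line is read 5′ to 3′ on the strand of the antisense model, with 10 exon and 10 intron bases, and the capitals are the 2 outermost bases of the intron.
Nr2f2 first intron start, chr7:70354922-70354941, plus strand: ccacaggcatCTggaagaaa
Nr2f2 first intron end, chr7:70357753-70357772, plus strand: tccttcctACctgaggtgaa
Nr2f2 second intron start, chr7:70358281-70358300, plus strand: ctctgtacagCTgcaggagg
Nr2f2 second intron end, chr7:70359878-70359897, plus strand: aggccgatACcttcccgtct
Snrnp70 intron start, chr7:45383175-45383194, plus strand: tgcgtggtggCTgcagtgac
Snrnp70 intron end, chr7:45383794-45383813, plus strand: cagtactcACagtgcatgtc
Snrnp70 other intron start, chr7:45392124-45392143, plus strand: tttcccgtctCTgccagtag
Snrnp70 other intron end, chr7:45392253-45392272, plus strand: aacagcatACctttctctcc
All 4 introns read CT to AC on the strand of the model, which is GT to AG on the strand of the annotated gene. The 2 introns opposite Nr2f2, which encodes an orphan nuclear receptor, carried 24 reads in replicate 1 and 32 in replicate 2.

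The second set holds the 4 most-read introns of antisense models that are not mirrored and whose letters were known, in the same layout.
Araf intron start, chrX:20851652-20851671, minus strand: aatgtcttccGTacctgcag
Araf intron end, chrX:20851565-20851584, minus strand: tccccattAGacttacaaaa
St13 intron start, chr15:81384239-81384258, plus strand: acataaaaagGCttccaaga
St13 intron end, chr15:81384435-81384454, plus strand: aaaaaaaaAGgcttccaaga
Nova2 intron start, chr7:18957955-18957974, minus strand: tggccagcagGTcggtgccc
Nova2 intron end, chr7:18957652-18957671, minus strand: gctcttgcAGgttgatgccc
Mrpl42 intron start, chr10:95490941-95490960, plus strand: ctctccgcttGTagattaga
Mrpl42 intron end, chr10:95493298-95493317, plus strand: caacccaaAGcctcaaatac
These introns read GT to AG or, opposite St13, GC to AG on the strand of the antisense model itself. They had few reads in this class, with 6 opposite Araf (6 in replicate 1 and 0 in replicate 2) and 6 opposite St13 (3 in each library). The Araf chain was present in replicate 2 with 8 reads under the genomic class. The first letters of the St13 intron recur directly after its end.

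The third set shows where single-exon antisense models stopped: the last 10 bases of the model in lower case, then the 20 genomic bases after its end in capitals. The models are the most-read ones with known letters, first 6 with at least 12 adenines in those 20 bases and then some with fewer.
Actb, chr5:142903645-142903674, plus strand: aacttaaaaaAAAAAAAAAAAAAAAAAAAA
Tacc1, chr8:25158024-25158053, plus strand: agattaaggcAAAAAAAAAAAAAAAAAAAA
Sept2, chr1:93507838-93507867, minus strand: aaaaaaaaacCCCAACCAAACAAAAAACAA
Cavin1, chr11:100958465-100958494, plus strand: ccggtttgttTAAAAAAAAAAAAAAAAGCC
2900097C17Rik, chr2:156391504-156391533, plus strand: acacaaaatgTAAAAAAAAAAAAAAAAAAA
Soat1, chr1:156428523-156428552, plus strand: acatggtttgAAAAAAAAAAAAAAAAAAAA
CT010467.1, chr17:39846949-39846978, plus strand: atccattggaGGGCAAGTCTGGTGCCAGCA
Tmem250-ps, chr2:26138374-26138403, plus strand: ggtgggccctCACATGTCCACAAAGACCAT
Malat1, chr19:5798991-5799020, plus strand: cttaatgcagCATTTTCACTTCATTTCTAT
Gnb1, chr4:155557942-155557971, minus strand: caaagtcttgCTACAAATGACTTATATTTA
Ptp4a2, chr4:129839131-129839160, minus strand: aaaaaaaaaaGCCTACTACTTCTGAGGCCA
In 3 of these (Actb, Tacc1 and Soat1) all 20 genomic bases after the model's end were adenine. The Ptp4a2 model ended on a run of adenines and was followed by other letters.

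The class held 3.30% of the mouse reads in replicate 1 and 4.22% in replicate 2. The exact 95% intervals of Clopper and Pearson ran from 3.26 to 3.34% and from 4.19 to 4.26%. Intervals here cover counting error only, and the difference between the libraries was larger than that error. On mouse chromosomes there were 10187 models with 25868 reads and 18209 models with 53783 reads. Most models had 1 read, with 66.4% of them in replicate 1 and 63.8% in replicate 2. Models with at least 100 reads numbered 9 and 25, and the 10 most-read models held 13.3% and 16.0% of the class's reads.

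Single-exon models made up 94.7% and 95.0% of the class. Those of 2 exons numbered 382 and 663, those of 3 exons 90 and 148, and those of 4 or more 64 and 93. All 536 and 904 multi-exon models together had 878 and 1438 reads. The single-exon share was near that of the genomic class (95.0% and 94.8%), which holds models inside known genes that match none of their splicing, such as unspliced RNA, and the intergenic class had 89.1% and 91.2%. Median lengths of antisense models were 1873 bases in replicate 1 and 1425 bases in replicate 2. Of all models, 104 and 252 were shorter than 50 bases, with 203 and 641 reads.

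The class label itself depended on the other models at a locus. Each of the 10187 and 18209 antisense loci held exactly 1 model of class Antisense. A further 423 and 811 models at 281 and 544 of these loci, with 836 and 2239 reads, carried other classes (genomic, incomplete splice match, new combination of splice sites or new splice site) and fall outside the rule. So a structure can be Antisense in one library and not in the other. Of the intron chains that were Antisense in replicate 1 and not in replicate 2, 25 were present there under another class, with 130 reads in replicate 1 and 172 in replicate 2. The other way round it was 28 chains, with 94 reads in replicate 2 and 57 in replicate 1.

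The spike-in RNAs, which were added as molecules of known strand, gave reads in the same class. Antisense reads numbered 110 in replicate 1 and 168 in replicate 2, all on spike-ins without a single sense read. ERCC-00009 had 73 and 115 antisense reads and ERCC-00116 had 32 and 45. The 41 and 46 spike-ins with sense reads had 11058 and 17139 of them and 0 antisense reads, which allows a share of up to 0.0271% and 0.0175%.

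Almost all models faced an annotated gene, which the definition of the class largely fixes in advance. By overlap of any base with a GENCODE gene body on the other strand, 10114 of 10187 models (99.3%) and 18023 of 18209 (99%) had an opposite-strand gene. The gene that the authors name for the model was the same in 97.2% and 97.3% of these. The 73 and 186 models without one had 169 and 425 reads, and for 62 and 172 of them the authors' gene was an unannotated locus. Protein-coding genes faced 94.3% and 94.2% of the assigned models, and lincRNA genes 1.63% and 1.73%.

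Of the models, 45.3% and 45.1% faced a gene without overlapping any of its exons. Models wholly inside exons of the facing gene were 13.2% and 15.4% of all, yet held 30.8% and 35.6% of the reads. Another 40.8% and 38.4% lay partly in exons, with their other bases in introns or outside the gene. Nearly all models lay within the bounds of the gene (93.4% and 94.3%), while 4.00% and 3.45% reached past its 5′ end and 2.26% and 1.94% past its 3′ end. Some lay just downstream of a gene on their own strand: 8.26% and 8.61% of models, with 16.9% and 19.7% of reads, began within 5000 bases after such a gene's end. The largest of these models, opposite Gm26917, held 1975 and 5409 of those 4365 and 10576 reads.

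Some model ends sat exactly on annotated ends of opposite-strand transcripts, whichever gene these belonged to. Of single-exon models, 667 (6.91%) and 1243 (7.18%) began on the very base where a transcript of the opposite strand ends, and extending the window to 50 bases raised this only to 744 and 1402. Single-exon models also began on an opposite-strand start in 3.41% and 3.39%, and stopped on an opposite-strand 3′ end in 4.33% and 5.08%. Models with all introns mirrored began on an opposite-strand 3′ end in 25.0% and 31.9% of cases and stopped on an opposite-strand start in 26.2% and 30.7%. Multi-exon models with no mirrored intron began on an opposite-strand 3′ end in 3.99% and 5.22%. More of them, 15.4% and 16.4%, began on an opposite-strand start, against 3.57% and 4.93% of fully mirrored models. The sources used here do not say whether the processing moved model ends onto annotated ones.

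Antisense reads touched 6003 annotated genes in replicate 1 and 8766 in replicate 2, and 4958 genes in both, which is 82.6% and 56.6% of each. They were not spread in proportion to sense reads. Across genes with a sense read, Spearman's rho between antisense and sense reads was 0.256 (15242 genes) and 0.338 (16852 genes), as a description over genes that share each library's depth. Among genes with 1 to 9 sense reads, 23.7% and 30.4% had an antisense read, and among genes with at least 1000 sense reads 57.1% and 60%.

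The ratio of antisense to sense reads ran the other way. Per 100 sense reads, genes with 1 to 9 sense reads had 24.0 and 35.7 antisense reads, genes with 10 to 99 had 5.99 and 9.28, genes with 100 to under 1000 had 1.17 and 3.02, and genes with at least 1000 had 0.242 and 0.569. The bins use the denominator of the ratio. With each gene binned by its sense reads in the other library, the values were 19.6, 5.86, 1.97 and 0.371 in replicate 1, and 8.65, 8.49, 1.96 and 0.392 in replicate 2, so the step between the 2 lowest bins of replicate 2 was not seen under that binning. Leaving out Gm26917 lowered the bin from 100 to under 1000 of replicate 2 to 2.02.

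**Figure D1:**
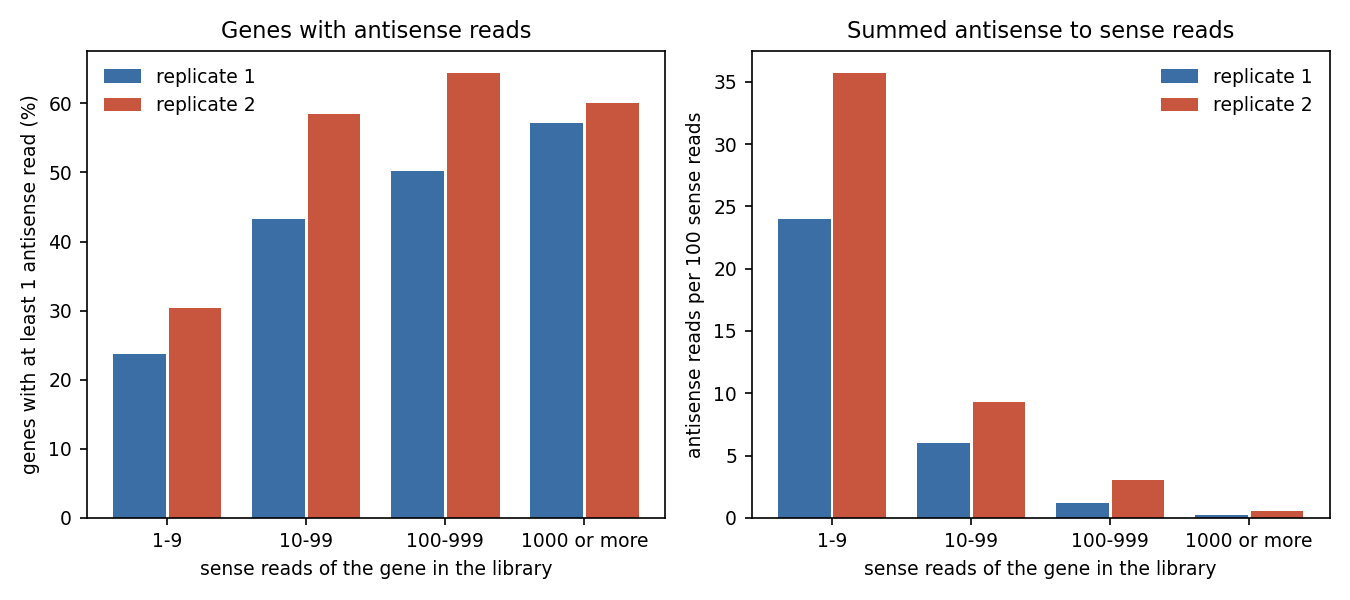
Genes are grouped by their sense reads in the library (horizontal axes), and bars show replicate 1 (blue) and replicate 2 (red). The left panel gives the percentage of genes with at least 1 antisense read and the right panel the summed antisense reads per 100 sense reads, which fell from 24.0 and 35.7 in the lowest group to 0.242 and 0.569 in the highest.

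Long genes carried antisense reads more often. Among genes with 10 to 99 sense reads, 15.3% and 25.8% of those up to 10 kb had one, 39.1% and 57.9% of those over 10 and up to 30 kb, 60.6% and 76.2% of those over 30 and up to 100 kb, and 76.1% and 86.0% of longer genes. The order of these shares was the same in both libraries. A longer gene body can overlap more models under the overlap rule, and this was not corrected for. By rising length, summed antisense reads per 100 sense reads were 4.86, 3.95, 6.9 and 14.2 in replicate 1. The first of these includes Gm26917 with its 1975 antisense reads. In replicate 2 the values were 3.04, 7.3, 12.3 and 25.

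In 369 of 1795 genes with at least 10 antisense reads over both libraries (20.6%), antisense reads exceeded sense reads, and in 240 of them they did so in each library by itself. The median ratio over genes with a sense read was 0.270 (quartiles 0.103 and 0.741). The minimum is set on antisense reads alone, so genes with few sense reads enter only where antisense reads are many. These shares and ratios therefore rise with the minimum and do not describe all genes. At a minimum of 20 antisense reads it was 200 of 695 genes (28.8%), with a median ratio of 0.448. Protein-coding genes made up 1726 of the 1795, and 315 of them (18.3%) had more antisense than sense reads. Of the 69 genes of other types 54 did (78.3%), and 28 of the 69 had no sense read in either library.

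**Figure D2:**
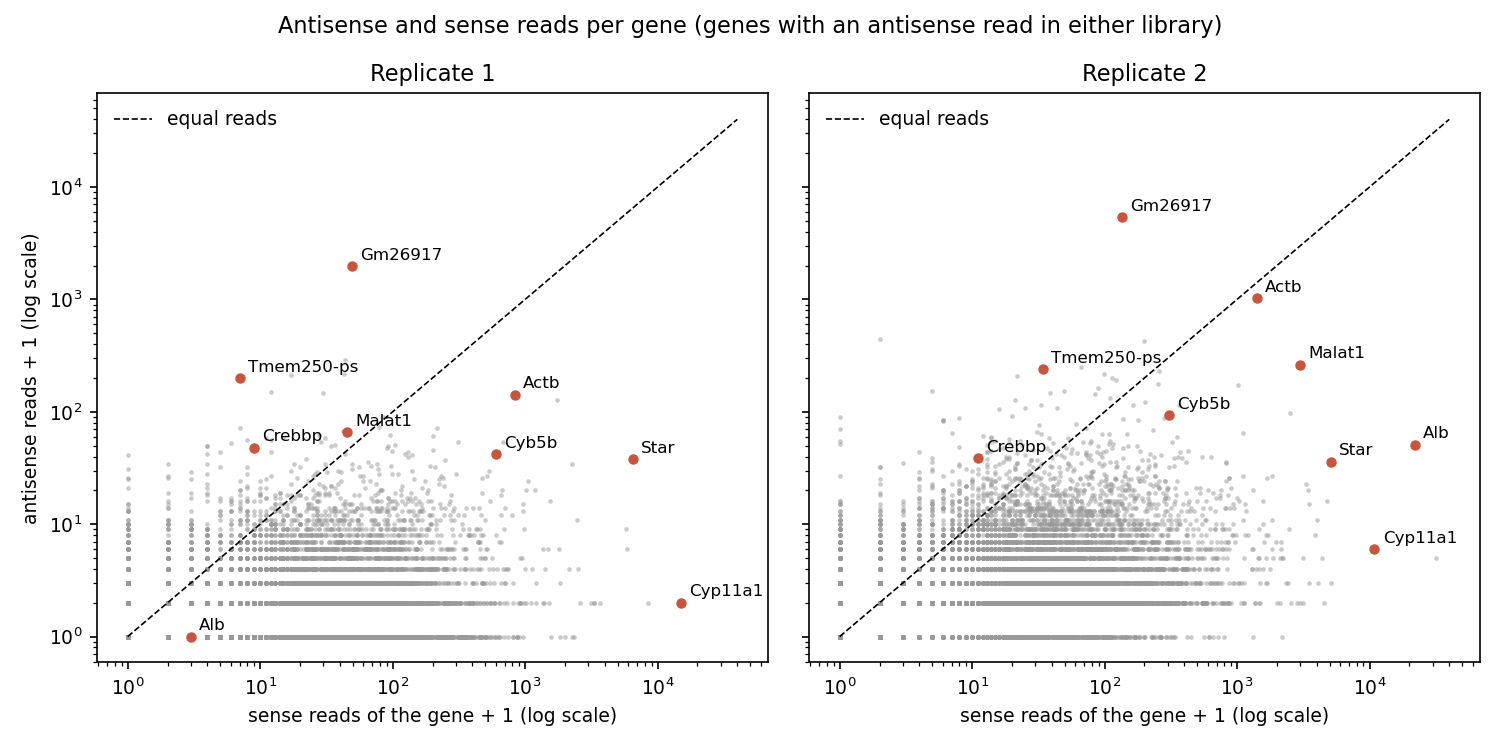
Each point is a gene with an antisense read in either library, placed by its sense reads plus 1 (horizontal, log scale) and antisense reads plus 1 (vertical, log scale) in replicate 1 and replicate 2, with named genes in red. Gm26917 and Tmem250-ps lie above the dashed line of equal reads in both panels, and Cyp11a1, with 14903 and 10879 sense reads, lies far below it.

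The single most-read antisense model lay on chromosome 17 opposite Gm26917, a lincRNA gene at 39843013 to 39846341 on the plus strand. It had 1975 reads in replicate 1 and 5409 in replicate 2, against 48 and 134 sense reads, a ratio of 41.1 (95% interval 30.9 to 56.0) and 40.4 (34.0 to 48.3). The ratio was alike in the libraries although the counts were not. Directly next to it, the annotated rRNA gene CT010467.1 had 30 and 439 antisense reads against 0 and 1 sense reads. With the 0 of replicate 1 set to a floor of 3 reads its ratio was 10, and the 95% lower limit was 7.64. Ribosomal RNA genes exist in many near-identical copies, so the placement of these reads is uncertain. Without both loci the class held 3.41% of the reads on average, against 3.76% with them.

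Other large single-exon models faced the 3′ part of protein-coding genes. Nfia, a nuclear factor I transcription factor, had 210 and 126 antisense against 16 and 20 sense reads, ratios of 13.1 and 6.30. Sept2, a septin that forms cytoskeletal filaments, had 215 and 145 against 42 and 38, ratios of 5.12 and 3.82. For Tacc1, which encodes a centrosome-associated coiled-coil protein, they were 145 and 248 against 29 and 65. In each of these genes the antisense strand was the more read one in both libraries, and the 95% intervals of all 6 ratios lay above 1.

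For Tmem250-ps, annotated as a lincRNA gene, the counts were 197 and 240 antisense against 6 and 33 sense, ratios of 32.8 (14.8 to 90.6) and 7.27 (5.04 to 10.8). Gnb1, a G protein beta subunit, had 71 and 228 antisense against 215 and 258 sense reads, ratios of 0.330 (95% interval 0.249 to 0.434) and 0.884 (0.736 to 1.06), the latter including 1. Malat1, an abundant nuclear noncoding RNA, had 65 antisense and 44 sense reads in replicate 1 but 262 and 2980 in replicate 2. Its ratio was 1.48 (95% interval 0.992 to 2.22) in replicate 1 and 0.0879 (0.0772 to 0.0998) in replicate 2. For Malat1, Tmem250-ps and Gnb1 alike, the intervals of the libraries did not overlap, and these intervals cover counting error only.

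Actb, the cytoplasmic beta-actin gene, had the second largest antisense count, 141 reads in replicate 1 and 1022 in replicate 2, against 831 and 1403 sense reads. All fell in 1 model per library, both ending at 142903654 on chromosome 5, followed by the run of adenines printed above. In replicate 1 the model spanned 421 bases and in replicate 2 it spanned 1931 bases and reached past the 3′ end of Actb. Actb has processed copies elsewhere in the genome, and the sources used here do not say how reads shared between copies were placed.

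The largest ratios over both libraries, among genes with at least 20 antisense reads, belonged mostly to genes with few or no sense reads. Besides CT010467.1 and Gm26917 they were Acnat1, 6430511E19Rik, Gm10874, AC161438.1, Gdap10 and Slc5a3. 6430511E19Rik had 40 and 54 antisense reads and no sense read, at least 13.3 and 18.0 times the floor of 3. Gdap10 had 24 and 51 against 0 and 0, and Gm10874 had 4 and 88 against 0 and 0. Slc5a3, the sodium-coupled inositol transporter, had 49 and 31 antisense against 3 and 1 sense reads.

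Several of these rest on a small overlap with the gene named. The Acnat1 model of replicate 2 (151 reads, 2827 bases) shared 5 bases with Acnat1, and the AC161438.1 model (14 and 70 reads) shared 151 bases in each library. In replicate 1 the Gm10874 model shared 1 base with its gene. The facing gene of such a model is therefore set by the overlap rule.

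Among genes of adrenal interest, 3 that lie outside the naming rule were added after their values were seen. Gml2, at 74819071 to 74834871 on the plus strand of chromosome 15, had 148 and 107 antisense reads against 11 and 43 sense reads. The antisense model overlapped no Gml2 exon. In replicate 1 it began 1070 bases downstream of Cyp11b1, the last enzyme of corticosterone synthesis, on the strand of Cyp11b1, and in replicate 2 it began on the last annotated base of Cyp11b1, 74834125. Soat1, which esterifies cholesterol for storage, had 53 and 176 antisense against 685 and 250 sense reads, and its lead model ran from 156424525 to 156428532 on chromosome 1 in both libraries. Kcnk3, a two-pore potassium channel, had 126 and 173 against 1744 and 1015.

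The 22 steroidogenic genes as a list carried 211 and 252 antisense reads against 53557 and 36080 sense reads, or 0.394 and 0.698 per 100, where all genes together had 3.42 and 4.41. Genes with at least 1000 sense reads had 0.242 and 0.569, so the list's values were not low beside those of highly read genes. Antisense reads were found for 11 and 13 of the 22. They were unevenly shared among the members. Cyp11a1, the side-chain cleavage enzyme that begins steroid synthesis, had 1 and 5 antisense reads against 14903 and 10879 sense reads, and Cyp11b1 had 1 and 2 against 8534 and 4073.

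Larger antisense counts were found opposite other members. Cyb5b, the mitochondrial outer membrane cytochrome b5, had 41 and 92 antisense against 598 and 303 sense reads. Mrap, which helps the ACTH receptor reach the cell surface, had 17 and 31 against 276 and 148. Fdx1, the ferredoxin that passes electrons to mitochondrial steroid hydroxylases, had 29 and 39 against 532 and 632. Both Star (37 and 35 against 6524 and 5082), which carries cholesterol into mitochondria, and Nr5a1 (13 and 15 against 404 and 338), the transcription factor SF-1, had similar raw counts in libraries of unequal depth. Per 1000000 reads Star had 47.5 and 27.7 (adjusted p = 0.0767 by Fisher's exact test) and Nr5a1 16.7 and 11.9 (adjusted p = 0.61), neither past the threshold. Cyb5a had 9 and 12 against 138 and 443, and Hsd3b1 5 and 15 against 5912 and 4761.

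Mc2r, the ACTH receptor, was the 1 list member with more reads of the Antisense class than sense reads, in replicate 1 alone. That library had 57 antisense reads in a chain of 3 exons, both introns of which are mirrored and together make up the complete chain of an annotated Mc2r transcript, against 30 sense reads. In replicate 2 the class held 2 reads against 67 sense reads, and the same chain was there with 84 reads under another class. Over all models of the antisense loci facing Mc2r there were 69 and 103 reads, more than the 30 and 67 sense reads in both libraries. The contrast within the class therefore follows the class label and is not seen when whole loci are counted.

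The 30 chromaffin cell genes had 29 and 72 antisense against 10547 and 11428 sense reads, 0.275 and 0.630 per 100. Cpe, a carboxypeptidase that trims peptide hormones, had 12 and 20 antisense reads and Chgb, a granule protein, 1 and 10. Ddc, which makes dopamine from L-DOPA, had 2 and 9 against 7 and 36 sense reads. These counts are too small to rank the genes.

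The 83 cytosolic ribosomal protein genes had 22 and 52 antisense against 9112 and 16834 sense reads, 0.241 and 0.309 per 100, with Rps7 (7 and 9 reads) the only member at 10 or more. Of the mitochondrially encoded genes mt-Rnr2 had 1 and 26. Liver transcripts differed strongly between the libraries: the 12 liver genes had 0 antisense reads beside 169 sense reads in replicate 1 and 84 beside 101195 in replicate 2, or 0.083 per 100. Alb had 0 and 50 antisense reads and Ttr 0 and 22. In replicate 1 the markers Ttr, Fgb and 7 other liver genes were at 0, and the liver list summed to 224.6 counts per 1000000 sense reads (CPM), against 83586 CPM in the other library. The skeletal muscle genes had 1 and 0 antisense reads, beside sums of 4505 and 71.0 CPM. The 6 cortical and 5 medullary markers were all detected in both libraries. The part of these other tissues in the antisense counts was not tested beyond these lists.

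Multi-exon models fell into 2 kinds. In replicate 1, 168 of 536 had all introns mirrored, 351 had none mirrored and 17 had some. In replicate 2 the numbers were 345, 536 and 23 of 904. The fully mirrored models held 48.9% and 50.1% of the multi-exon reads. In 24 and 49 models, with 136 and 158 reads, the mirrored chain was the complete intron chain of an annotated transcript.

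Counted as distinct introns, 259 of 818 (31.7%) and 483 of 1309 (36.9%) coincided exactly with an annotated intron of the opposite strand. None coincided with an annotated intron of the model's own strand. Models with such a match would largely fall in other classes, so nothing is read from this. For models of known genes with a new splice site (NNC), 26 of 99929 introns (0.0260%) and 23 of 103885 (0.0221%) were mirrored. Most NNC introns, 75.7% and 72.2%, are annotated on their own strand, so this is an unlike background. Allowing 5 bases at each end gave 273 and 517, so few introns were close to an annotated one without matching it. Of the introns that were not mirrored, 4 of 559 and 11 of 826 shared at least 1 end with an annotated opposite-strand intron. An intron was thus nearly always mirrored at both ends or at neither.

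Splice-site letters could be read for few introns, since no genome sequence of this build was used, so a check over the class is void: 5.72% and 8.23% of the non-mirrored introns had known letters. Of those, 31 of 32 and 63 of 68 read as a splice site (GT to AG, GC to AG or AT to AC) on the model's own strand. All 18 and 35 mirrored introns with known letters read so only on the opposite strand, as follows from their being annotated introns of that strand. Direct repeats of at least 6 bases across the 2 ends, as in St13, were found at 8 of 93 distinct non-mirrored introns with known letters outside chromosome 18 and at 0 of 44 mirrored ones.

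Genes facing fully mirrored models had more sense reads than those facing models without a mirrored intron. Their median was 39 sense reads over 164 genes and 41 over 335, against 13 over 332 and 14 over 504, and 13 and 14 over all detected genes. In 5 of 164 and 11 of 335 mirrored genes such models had more reads than sense models, against 60 of 332 and 73 of 504 others. Genes with no sense read meet this by construction. They numbered 2 and 3 in the mirrored set and 56 and 69 in the other, so the contrast in these counts rests mostly on them. Genes with no sense read at all were 1.22% and 0.896% of the mirrored set and 16.9% and 13.7% of the other.

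Of the multi-exon chains, 92 were Antisense in both libraries, which is 17.2% of those in replicate 1 and 10.2% of those in replicate 2. For intergenic chains it was 27, or 14.5% and 9.89%, for NNC chains 3167, or 15.9% and 13.3%, and for chains that join known splice sites in a new way (NIC) 5494, or 29.0% and 27.1%. With at least 2 reads in each library, 25 antisense chains recurred, 38.5% and 17.7%. Fully mirrored chains recurred in 52 cases (31.0% and 15.1%) and chains with no mirrored intron in 39 (11.1% and 7.28%). The shares depend on reads per chain, and mirrored models had 2.55 and 2.09 reads each against 1.23 and 1.29.

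**Figure D3:**
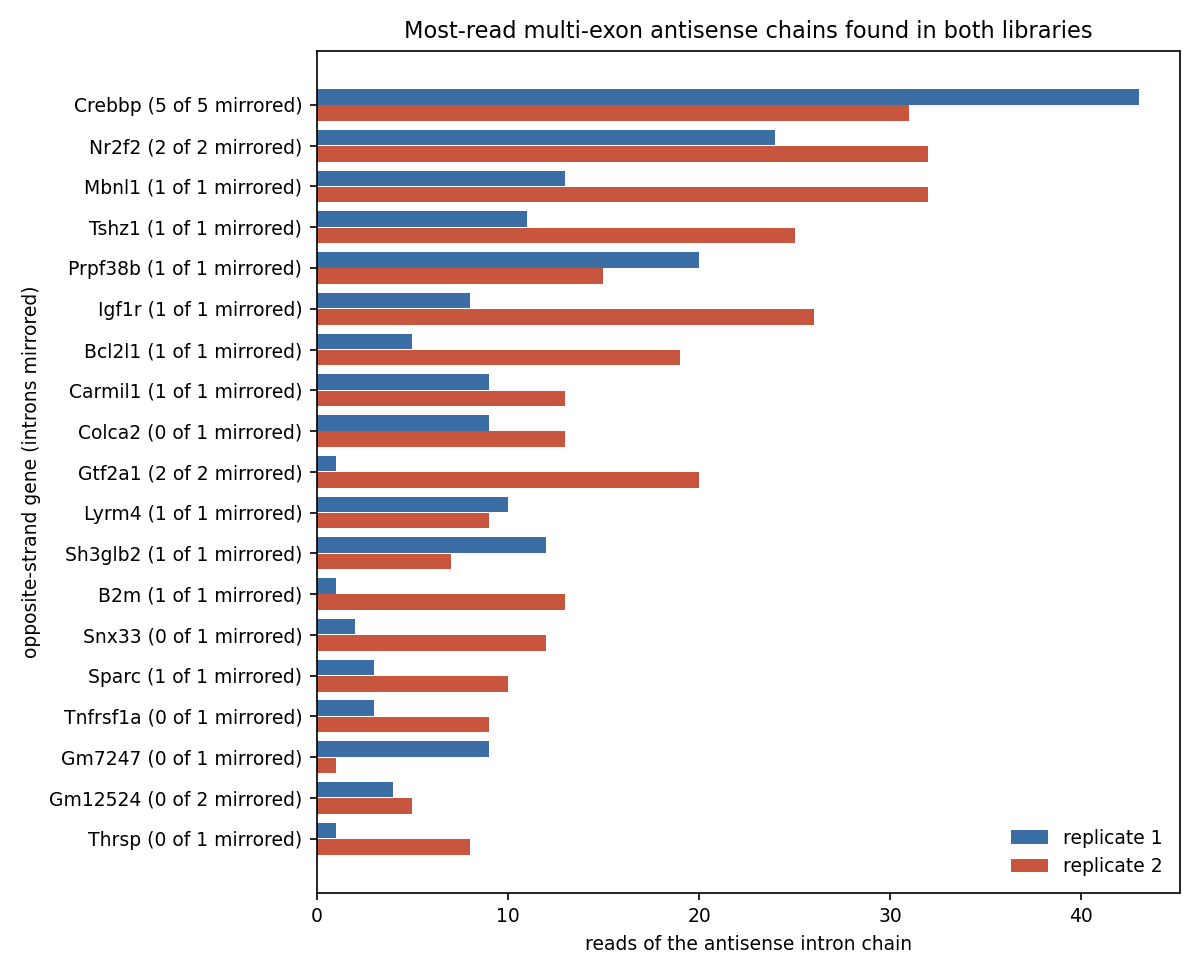
Multi-exon antisense chains with the most reads among those found in both libraries, named by the facing gene with the number of mirrored introns, are drawn as horizontal bars of reads in replicate 1 (blue) and replicate 2 (red). Crebbp leads with 43 and 31 reads, and the chains opposite Colca2, Snx33, Tnfrsf1a, Gm7247, Gm12524 and Thrsp are the ones drawn with no mirrored intron.

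Crebbp, which encodes a histone acetyltransferase and transcriptional coactivator, faced the most-read recurrent chain. The chain had 6 exons on the plus strand of chromosome 16 from 4128444 to 4213997, and 43 and 31 reads. All 5 introns were mirrored, all 2344 bases lay in Crebbp exons, and the chain stopped on the annotated start of the gene. With a few single-exon reads the gene had 47 and 38 antisense reads in all, against 8 and 10 sense reads, and the ratios were 5.88 (2.75 to 14.4) and 3.80 (1.86 to 8.55).

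Nr2f2 had 24 and 32 reads in a chain of 3 exons whose introns are those of an annotated Nr2f2 transcript, against 68 and 55 sense reads. Mbnl1, a splicing regulator, had 13 and 32 reads in a mirrored chain of 2 exons spanning 60529549 to 60598100 on chromosome 3, against 130 and 150 sense reads. Tshz1, a zinc finger transcription factor, had 11 and 25 against 19 and 25, and Prpf38b, a splicing factor, 20 and 15 against 30 and 55. These 4 chains are among those named for being found in both libraries, so their presence in both follows from that choice.

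Igf1r, the receptor of insulin-like growth factor 1, had 8 and 26 reads in a mirrored chain, of whose 2067 bases in replicate 2 672 lay in Igf1r exons, against 12 and 12 sense reads. Bcl2l1, which encodes the survival protein Bcl-x, had 5 and 19 against 65 and 40. Carmil1, a regulator of actin capping, had 9 and 13 against 10 and 17. Ccdc80, an extracellular matrix protein, stood among the 10 genes with most multi-exon reads with 7 and 33, in chains that differed between the libraries: the 2-exon chain of replicate 2 was in replicate 1 with 3 reads under another class.

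Chains without a mirrored intron and with many reads faced Colca2, Snx33, Tnfrsf1a, Gm7247 and Gm12524, the last equal in reads to Gm14326 and Thrsp. Opposite Colca2 there were 9 and 13 reads and 56 shared exon bases, and Colca2 itself had 3 and 5 sense reads. Opposite Tnfrsf1a, a tumour necrosis factor receptor, there were 3 and 9 reads. Snx33, a sorting nexin, differed from these in that 3202 of the 3208 bases of its chain (2 and 12 reads) lay in its exons.

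Single-exon models recurred by position. With an overlap of at least 50% of both models required, 33.8% of those in replicate 1 and 18.8% of those in replicate 2 had a partner, with 55.7% and 46.2% of the reads. Models with at least 10 reads had one in 210 of 287 (73.2%) and 382 of 613 (62.3%). Genomic models gave 35.4% and 20.0%, and intergenic models 23.0% and 12.4%, by the same measure.

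Adenine content after the 3′ end could be read for the models that stop inside an annotated exon or promoter, 22.8% and 24.9% of the single-exon models, so it is void as a statement on the whole class. Of these 2204 and 4317 models, 737 (33.4%) and 1296 (30%) were followed by at least 12 adenines in 20 genomic bases. Before the 5′ end it was 1.63% and 2.24%. Single-exon genomic models with known letters had 13.2% and 16.6% after the 3′ end, and single-exon known transcripts 11.8% and 14.4%. Of antisense models with at least 10 reads, 62 of 144 (43.1%) and 145 of 321 (45.2%) were followed by such a stretch. No test was made of these shares, which come from different sets of sites.

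**Figure D4:**
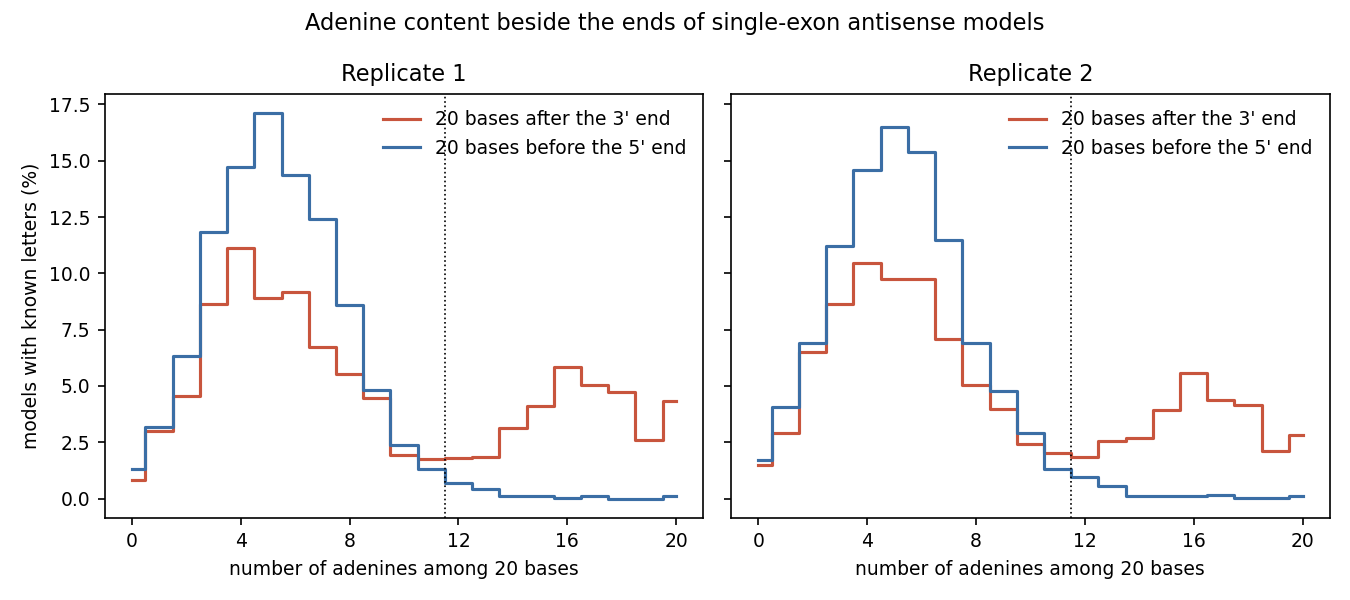
Lines give the percentage of single-exon antisense models with known letters (vertical) by the number of adenines among 20 genomic bases (horizontal), after the 3′ end in red and before the 5′ end in blue, for each replicate. The red line has a peak near that of the blue one and a second above the dotted line at 12 or more adenines, which holds 33.4% and 30% of the models.

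Between the libraries, the antisense reads facing each gene were compared with Fisher's exact test (two-sided), adjusted by Benjamini-Hochberg over 13177 features that also included the sense reads of each gene. This compares 2 libraries, not conditions. Of 1795 antisense features with at least 10 reads, 238 differed at an adjusted p of 0.05 (13.3%), beside 33.4% of all features. They were higher in replicate 2 in 157 cases (8.75%) and in replicate 1 in 81 (4.51%). Over all features the shares were 10.7% and 22.6%, so the split ran the other way there. With TMM or DESeq2 scaling and an exact conditional test the split of antisense features was 241 and 39. That scaling set the ratio of replicate 2 to replicate 1 at 1.31, against 1.62 by totals. The split of all features under it is not given here, so the 241 and 39 have no background beside them. Per 1000000 reads, the median antisense feature was 0.22 higher on the log2 scale in replicate 2 and the median sense feature had -0.35.

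**Figure D5:**
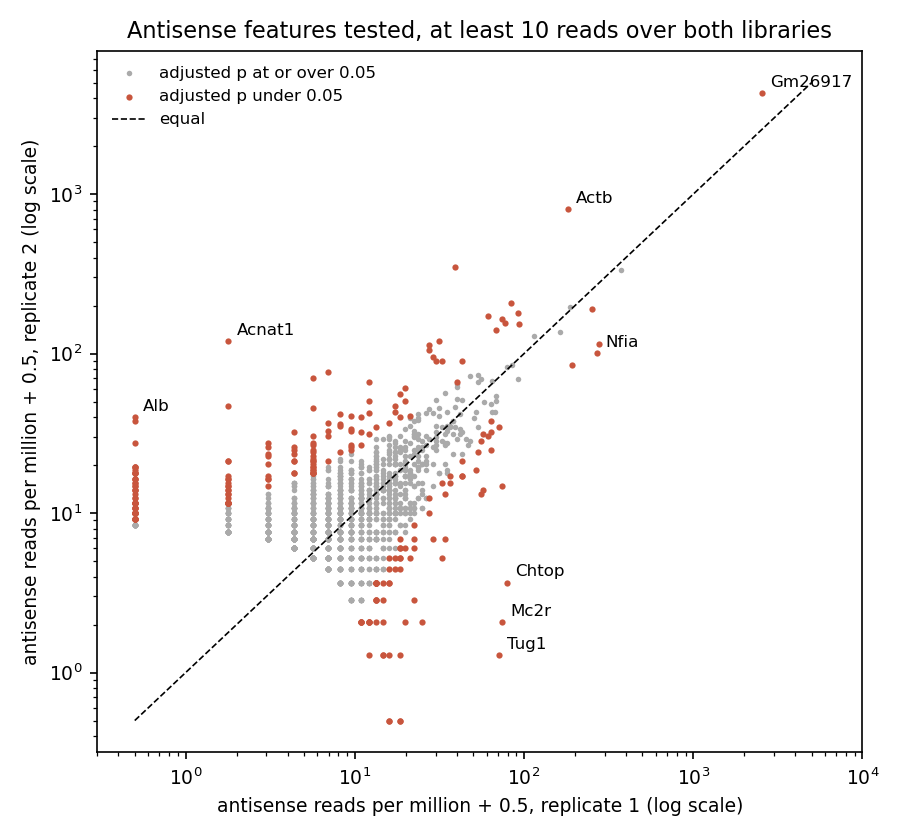
Each point is an antisense feature with at least 10 reads over both libraries, placed by antisense reads per 1000000 plus 0.5 in replicate 1 (horizontal) and replicate 2 (vertical), both on log scales. Red points, 238 of 1795, had an adjusted p under 0.05 by Fisher's exact test, and of the labelled points Alb, Acnat1 and Tug1 lie far from the dashed line of equality.

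Of features with at least 20 reads that were higher in replicate 2, the 3 named were those of Alb, Acnat1 and Slc38a3, ordered by fold with 0.5 reads added to each count, so that the place of genes with 0 reads depends on that addition. Alb had 0 and 50 antisense reads (adjusted p = 9.88e-10 by Fisher's exact test with Benjamini-Hochberg adjustment), where sense reads were 2 and 21951. Acnat1, an acyltransferase of fatty acid metabolism, had 1 and 151 antisense reads (adjusted p = 1.16e-28), and Slc38a3, an amino acid transporter abundant in liver, had 0 and 47 (adjusted p = 2.71e-09) with sense reads of 2 and 113. The liver list stood at 83586 CPM in the library where these features were higher, and at 224.6 CPM in the other. A link between the list and these features was not tested. The Acnat1 model of replicate 2 shared only 5 bases with Acnat1, and the lead Slc38a3 model overlapped no Slc38a3 exon.

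In the other direction, among features of at least 20 reads, the rule named Tug1, Mc2r and Chtop, and each had reads of other classes at the same place in replicate 2. Tug1, a long noncoding RNA gene, had 55 and 1 antisense reads (adjusted p = 8.75e-21 by Fisher's exact test), and with all models of the antisense loci counted 55 and 44 (adjusted p = 0.00267). Mc2r went from 57 and 2 (adjusted p = 2.38e-20) to 69 and 103 (adjusted p = 0.741). Chtop, which encodes an RNA export factor, went from 61 and 4 (adjusted p = 7.58e-20) to 61 and 30 (adjusted p = 3.04e-07). Over whole loci, 240 of 1878 features differed, among them 222 of the 238, and 14 of the 81 that were higher in replicate 1 no longer did.

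Of the 238 genes whose antisense reads differed, sense reads differed in the same direction in 72, in the opposite direction in 46, and not at the threshold in 90, while 30 had too few sense reads to be tested. Over all sense features tested, 11% were higher in replicate 2 and 25.5% in replicate 1, and nothing is read from the counts beyond that background. Actb had 181.2 and 808.5 antisense reads per 1000000, a log2 difference of 2.16 (adjusted p = 2.36e-85 by Fisher's exact test), and a sense difference of 0.06 (adjusted p = 0.563). Nfia had 269.9 and 99.7 antisense reads per 1000000 (log2 -1.44, adjusted p = 5.04e-18) and a sense difference of -0.38 (adjusted p = 0.666). Selenop, a selenium transport protein made mainly in liver, was higher in replicate 2 on both strands, with 5 and 97 antisense reads and 265 and 2494 sense reads.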

How the data were processed

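The deposited tables hold raw counts of long reads per transcript model (whole numbers, not normalized), 1 table per library, with a class, exon number and length for each model. Per the labels and the deposited read-me the build is mm10 with GENCODE M21. The deposited model files name TALON as their source. Not given in the sources used here are the aligner, versions, filters and the way strand was set. The labels give 1 µg of RNA for replicate 2 alone. Spike-in models (4 and 5 of the Antisense class) were kept apart. Here each model was assigned to the opposite-strand gene with most overlapping exonic, then gene, bases. Sense reads are all reads of models of the known gene, and CPM is per 1000000 of these. Introns were compared base for base. Letters came from 141767 GENCODE transcripts and 32851 RefSeq promoters, with 0 conflicts over 3304348 shared bases; chromosome 18 was left out of the printed sequences. Intervals are exact Clopper-Pearson at 95%, and a count of 0 was bounded at 3 reads; both cover counting error only, since reads without molecular identifiers are not independent molecules. Fisher's exact test used features of at least 10 reads (Python 3.11.15, scipy 1.17.1), was tested on simulated data, and was repeated with scale factors from edgeR 4.0.16 and DESeq2 1.42.0. It compares 2 libraries and measures no biological spread.

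Named were the 10 genes with most multi-exon and 10 with most single-exon antisense reads, the 10 most-read chains found in both libraries, the 8 largest ratios with at least 20 antisense reads, the 6 most-read chains with no mirrored intron, the 3 features of at least 20 reads most different in each direction, and list members with at least 10 antisense reads. Some genes that meet this rule are not reported here by name and are not drawn among the chains. Members and lists were chosen with earlier results of these data known.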

Additional observations from a re-analysis of the deposited data

How the results depend on the processing

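The class held 3.76% of mouse reads on average. Keeping only models of at least 2 reads gave 2.88%, and of at least 5 reads 1.98%. Its 18209 models in replicate 2 became 6585 and 1745 under these minimums, and 13212 expected after thinning to the depth of replicate 1. The share of models with an opposite-strand gene was 99.1%, 53.9% when an exon had to be overlapped and 95.8% when at least 50% of the model's bases had to lie in the gene. The 369 genes with more antisense than sense reads became 784 with sense reads of known transcripts alone, 571 at a minimum of 5 antisense reads, 200 at a minimum of 20 and 4 from multi-exon models alone. Leaving out a library gave 154 to 314 genes. Mirrored introns were 34.3% on average, 54.2% for models of at least 2 reads, 53.0% weighted by reads, and 60.7% for chains found in both libraries. Own-strand splice letters were read at 61.6% of introns with known letters, 45.5% for models of at least 2 reads, 38.2% weighted by reads and 94.8% without mirrored introns. Recurrence of chains was 13.7% on average and 28.1% at 2 reads in each library. It has no value without either library. The 238 antisense features that differed between libraries ranged from 159 to 280 over the alternatives. In all, 29 of 47 alternatives stayed within the spread of the libraries, or within 1.5 times for counts. For shares, leaving out 1 of 2 libraries always stays within that spread by construction. Those settings are among the 29 and say nothing on stability. Counting whole antisense loci, leaving out short models, the rRNA locus or own-strand overlaps, and requiring recurrence were chosen after seeing the data. The cause of these shifts was not tested, except that higher minimums by construction keep fewer models. No paired analysis was possible because the libraries form 1 group. With 2 libraries and 1 read for most models, depth limits what can be seen of single loci.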
